A study of Homo sapiens with 6 samples.

Results

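Cytosolic ribosomal proteins, the protein parts of the large and small ribosomal subunits, were followed in LNCaP cells after exposure to gedunin. Members were all genes whose symbol in the platform annotation is RPL or RPS with a number, or RPLP0, RPLP1, RPLP2 or RPSA, without pseudogenes, the RPS6K kinases and the Y-linked forms of RPS4, and only probe sets naming 1 gene were used. This gave 68 genes of the 12165 on the array, 44 of the large and 24 of the small subunit, read by 128 probe sets. The same rule names 85 protein-coding genes in RefSeq (GRCh38.p14). Of the other 17, RPL21, RPL34, RPL36A, RPS3 and RPS26 were named only by probe sets shared with other symbols. The remaining 12 were not analysed here.

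LNCaP is a human prostate cancer line that depends on androgen signalling, and gedunin is a limonoid from neem. Cultures in medium with serum received 20 µM gedunin (3 arrays) or the solvent DMSO (3 arrays), each for 6 h, and total RNA was labelled with biotin and hybridised to Affymetrix arrays. The arrays of each group are numbered as biological replicates, so p-values cover the variation among these arrays only. The array labelled DMSO 3 did not read as LNCaP: the 7 measured luminal prostate markers summed to 183 on it, against 13129 to 13765 on the gedunin arrays and 13951 and 14257 on DMSO 1 and 2, while 6 leukocyte markers summed to 21880 and 3 B lymphoid markers to 2854. It was therefore left out of the comparison (gedunin 1 to 3 against DMSO 1 and 2) and is shown apart.

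Each ribosome carries 1 copy of nearly every ribosomal protein, so cells make these proteins in matched amounts. Their mRNAs are among the most abundant and most stable in growing cells, and their output is set largely by translation. Nearly all begin with a terminal oligopyrimidine (TOP) tract, a C at the cap followed by a run of C and T (U in the RNA), through which mTORC1 and the binding protein LARP1 control translation. Ribosomal proteins made in excess are degraded, and RPL5, RPL11 and RPL23 can bind MDM2, the ubiquitin ligase of p53.

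The TOP tract can be seen at the annotated starts of these genes. RefSeq promoter sequences (GRCh38.p14) were listed for 56 of the 68 genes. A start with C as its first transcribed base and at least 4 further C or T, read on the transcribed strand, was found for 38 of them (67.9%), against 6.90% of the 9711 genes of the array with a listed start. The hexamer CTTCCG, looked for on both strands within 250 bases before to 50 after the start, was in 35 of the 56 (62.5%), against 32.4% of those 9711. TATAAA was in 4 (7.14%), against 11.6%. The windows below hold 15 bases before the start and 15 from it, with capitals, in genes with a TOP start only, for the pyrimidine run that begins at the first base. The first 5 are genes with a TOP start that are described below, and the last 4 are paralogs without one in this window.
RPL11, chr1:23691791-23691820, plus strand: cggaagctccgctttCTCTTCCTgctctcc
RPL37A, chr2:216498829-216498858, plus strand: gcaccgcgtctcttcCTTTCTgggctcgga
RPLP2, chr11:809952-809981, plus strand: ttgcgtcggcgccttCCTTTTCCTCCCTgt
RPS27, chr1:153990747-153990776, plus strand: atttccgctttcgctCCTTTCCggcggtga
RPS6, chr9:19380222-19380251, minus strand: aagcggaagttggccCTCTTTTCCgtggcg
RPS27L, chr15:63157463-63157492, minus strand: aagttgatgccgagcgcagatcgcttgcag
RPL36AL, chr14:49620612-49620641, minus strand: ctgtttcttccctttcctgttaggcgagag
RPL26L1, chr5:172958714-172958743, plus strand: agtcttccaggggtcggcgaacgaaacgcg
RPL10L, chr14:46651767-46651796, minus strand: caggcgtagttaagagagcgcattttgact

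Ribosomal protein genes hardly moved after 6 h of gedunin, and where they differed they were a little lower. By limma with Benjamini-Hochberg adjustment over all probe sets, 1 of the 68 rose (RPL10L) and 1 fell (RPL37A). Among all 12165 genes 8.22% rose and 9.35% fell, 17.6% in all. At an unadjusted p of 0.05, 4 members passed (5.88%), against 30.3% of all genes. The median log2 fold change, gedunin over DMSO 1 and 2, was -0.078 for the 68 genes (interquartile range -0.12 to -0.030) and -0.017 for all genes (-0.16 to 0.11). It lay within 0.25 of 0 for 65 members, against 72.4% of all genes, and no member reached a 2-fold change, as 296 genes of the array did.

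The interval of each difference bounds the change in array signal that could have been missed, given limma's pooled variance. Whether the signal of bright probe sets follows mRNA amounts in proportion was not tested. For the 62 members whose probe set had a mean log2 intensity of at least 10, standard errors ran from 0.083 to 0.10, and all 62 of the 95% intervals lay inside -0.5 to 0.5. Their lowest bound was -0.46 (RPL23) and their highest 0.35 (RPS27L). In data simulated for this comparison of 3 against 2 arrays over 22215 probe sets, 72 percent of log2 changes of 0.5 were recovered but 2 percent of changes of 0.25. Only 50 probe sets of each size were changed in that simulation, drawn from all intensities, while 15.3% of all probe sets were called here. These rates may therefore not hold for the bright members. Most members' differences were below 0.25 in size.

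**Figure D1:**
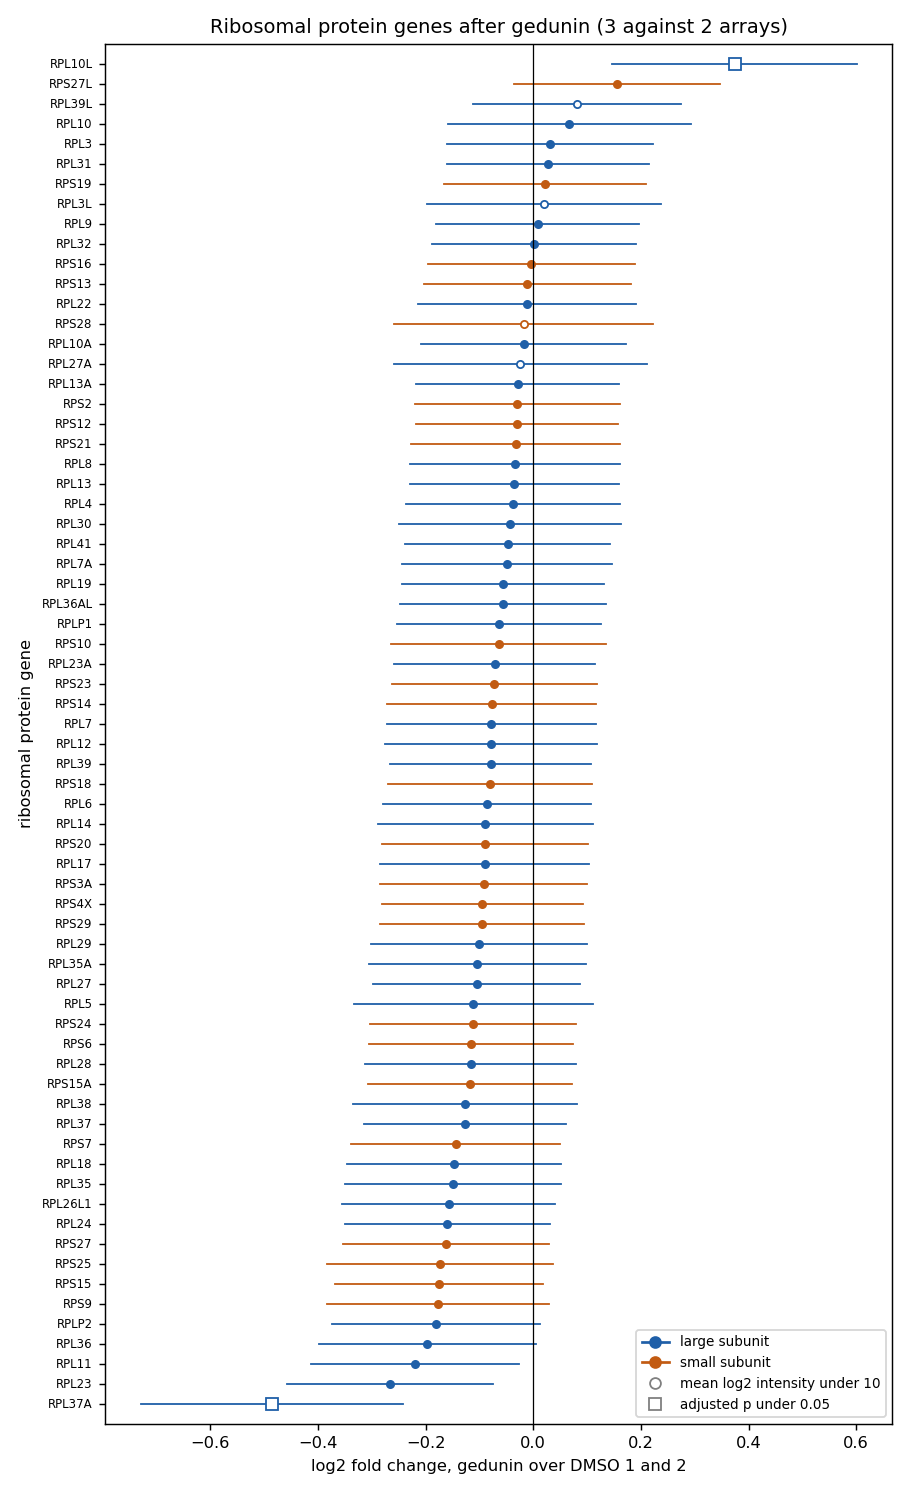
Log2 fold change (gedunin over DMSO 1 and 2) with its 95% interval for each of the 68 genes, blue for the large and orange for the small subunit, open symbols for probe sets with a mean log2 intensity under 10 and squares for an adjusted p under 0.05. Both squares, RPL10L at the top and RPL37A at the bottom, are open, and 64 of the 68 intervals include 0.

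The small downward lean was shared by most members. Log2 fold changes were below 0 for 58 of the 68 genes (36 of 44 large and 22 of 24 small subunit genes), against 53.6% of all genes, and the medians of the large and small subunit were -0.075 and -0.085. For 35 members all 3 gedunin arrays lay below both DMSO arrays, against 26.0% of all genes, and for 3 they lay above both, against 20.2%. Genes in the top 10% of mean intensity leaned the same way: 61.4% of those 1217 genes were below 0. For 42.2% of them all 3 gedunin arrays lay below both DMSO arrays. Of the 62 members in that class 55 (88.7%) were below 0, and for 34 (54.8%) all gedunin arrays lay below both DMSO arrays. The 1155 genes of the class that are not members had a median of -0.062, against -0.080 for its members. The members spanned a narrower range, with 61 of the 62 members in that class but 66.0% of the 1155 other genes within 0.25 of 0. That class starts at a mean log2 intensity of 9.26, while its 62 members all had at least 10. It therefore does not match them in brightness. Among the 1217, 23.7% were called, and 0 of the 62 members. At an unadjusted p of 0.05, 2 of the 62 members passed, against 41.7% of the 1217. The difference between the sets was not tested.

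By array, the median member stood at -0.097, -0.062 and -0.070 on gedunin 1, 2 and 3, as log2 relative to its mean on DMSO 1 and 2. On DMSO 1 and 2 themselves it stood at -0.0027 and 0.0027, which mirror each other because that mean is the zero. The 3 gedunin medians lay below both DMSO medians. The members' share of the summed intensity of all genes was 13.6%, 13.7% and 13.7% on the gedunin arrays, against 14.7% and 14.5% on DMSO 1 and 2. RMA scales arrays that are normalized together to one distribution of intensities, and which arrays these were is not given. A common change in total mRNA per cell therefore cannot be read from these values, and intensities of different probe sets do not rank transcripts.

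**Figure D2:**
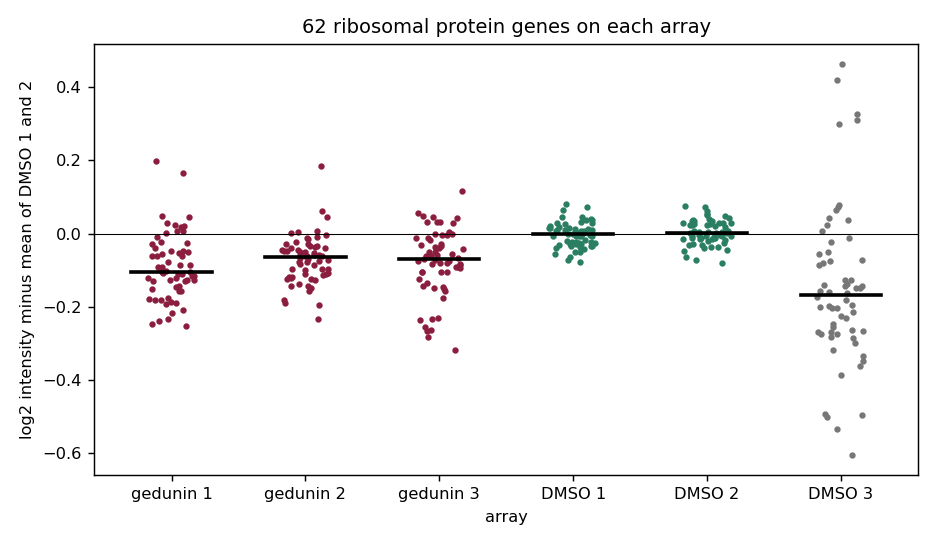
Each point is 1 of the 62 genes with a mean log2 intensity of at least 10, as log2 intensity minus its mean on DMSO 1 and 2, and bars are medians. Medians are -0.10, -0.065 and -0.070 on the gedunin arrays and within 0.001 of 0 on DMSO 1 and 2, while DMSO 3, not compared, spreads from -0.60 to 0.46.

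**Figure D3:**
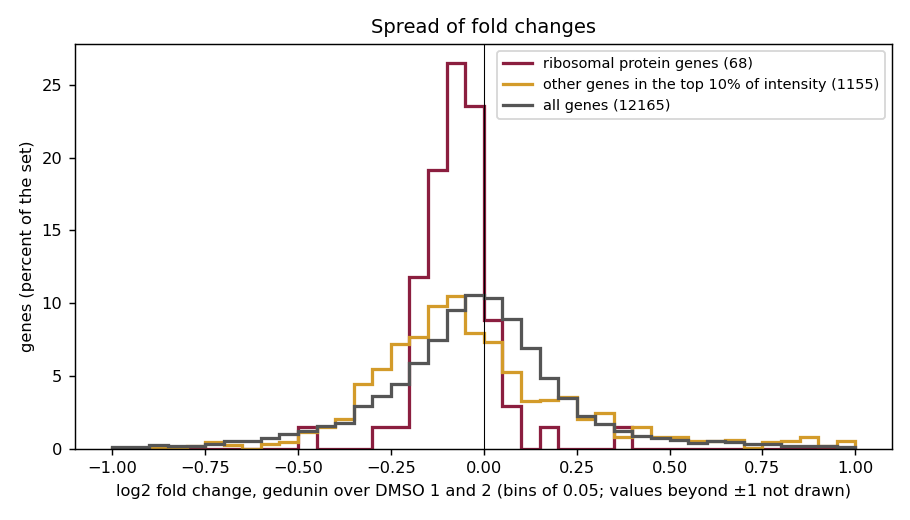
Percent of genes in bins of 0.05 log2 fold change for the 68 ribosomal protein genes, the 1155 other genes in the top 10% of intensity and all 12165 genes. Ribosomal protein genes crowd just below 0, with 65 within 0.25 of it.

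The lowest bright members were RPL23 and RPL11, both large subunit proteins that can bind MDM2. RPL23, which lies at the face between the subunits, read 4071, 4113 and 3874 on the gedunin arrays, against 4880 and 4784 on DMSO 1 and 2. The groups did not overlap. Its log2 fold change was -0.27 ± 0.09 (limma moderated SE, adjusted p = 0.0670), short of the threshold of 0.05. RPL11, which joins the ribosome with RPL5 and the 5S RNA, read 2807, 2972 and 2753 with gedunin, against 3336 and 3285 with DMSO, again without overlap (-0.22 ± 0.09, limma adjusted p = 0.132). RPL5 itself read 3823, 3908 and 3324 with gedunin, against 3871 and 4073, and here gedunin 2 lay between the DMSO arrays (-0.11 ± 0.10, limma adjusted p = 0.546). On another bright probe set RPL5 read 3053, 3004 and 2952, against 3315 and 3424, without overlap (-0.17 ± 0.08, limma adjusted p = 0.247).

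Call or no call for these bright members depended on several processing choices. With eBayes run with trend and robust switched on together, 10 of the 68 members were called lower and 1 higher. Among all genes 10.8% were called lower and 8.93% higher. The members' share of lower calls was thus above that of all genes, while in the main fit it was below. The 10 were RPL37A, RPL23, RPL11, RPL36, RPLP2, RPS9, RPS15, RPS27, RPL24 and RPS7, where RPS7 is named because it was called. RPL23 had an adjusted p of 0.00109 and RPL11 of 0.00945 in that limma fit. RPL23 was also called by limma with dim probe sets filtered out (adjusted p = 0.0415), after a second quantile normalization (0.0286), with the top 10% of probe sets as the centre (0.0308) and with log2 of the value plus 16 (0.0168). RPL11 was called with the second quantile normalization (limma adjusted p = 0.0490) and with the added 16 (0.0417). Centring the arrays on GAPDH and ACTB in place of RMA's scale moved the median of all genes to -0.19 and that of the members to -0.25. Of the 68 members 16 were then called lower, a share near the 25.8% of all genes, and 0 higher, against 5.35%.

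The stalk proteins recruit elongation factors to the ribosome. RPLP2 read 6751, 7070 and 6543 with gedunin, against 7689 and 7693 on DMSO 1 and 2, without overlap (-0.18 ± 0.09, limma adjusted p = 0.215). RPLP1, its partner, read 7222, 7222 and 7192, against 7326 and 7762, also without overlap but by less (-0.064 ± 0.08, limma adjusted p = 0.700). Of the 3 measured stalk genes, with RPL12, 0 were called, against 17.6% of all genes. At the exit of the nascent chain tunnel 7 genes were measured and 0 called, with a median of -0.072. Groups this small cannot be told apart from the share among all genes by a count of 0. RPL23A, which binds the signal recognition particle there, read 15381, 15822 and 15569, against 16368 and 16401 (-0.072 ± 0.08). RPL31 (0.028) and RPL39 (-0.079), its neighbours at the tunnel, had intervals that include 0.

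Small subunit genes gave 0 calls among 24, against 17.6% of all genes, and 0 at an unadjusted p of 0.05, against 30.3%. RPS9 (-0.18), RPS15 (-0.18) and RPS25 (-0.17) had the lowest values, each with all gedunin arrays below both DMSO arrays. A second bright probe set of RPS9 stood at -0.0016 ± 0.09, with overlapping groups. RPS15 sits in the head near the decoding site. RPS6, the substrate of S6 kinases that serves as a readout of mTORC1 activity, read 8414, 8682 and 8880 with gedunin, against 9418 and 9349 on DMSO 1 and 2 (-0.12 ± 0.08, limma adjusted p = 0.443). RPS4X, encoded on the X chromosome, read 7250, 7298 and 7362, against 7758 and 7840 (-0.095 ± 0.08). On these probe sets the groups were separate in both genes, with a gedunin over DMSO ratio of 0.923 for RPS6 and 0.936 for RPS4X. On another bright probe set of each gene they overlapped, at -0.030 for RPS6 and -0.048 for RPS4X. A further one of RPS6 was separate again, at -0.073. RPS19, the gene most often mutated in Diamond-Blackfan anaemia, read 6199, 6033 and 6280, against 6077 and 6073, and the groups overlapped (0.022 ± 0.08). RPS2, at the entry of the mRNA channel, stood at -0.030 ± 0.09.

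Several large subunit members were level on the probe set standing for the gene. RPL13A, also a translational silencer in interferon-treated myeloid cells, read 12621, 12647 and 13075 with gedunin, against 13123 and 12958 with DMSO (-0.029, 95% interval -0.22 to 0.16). Its other bright probe sets were lower. Those at -0.056 and -0.072 had all gedunin arrays below both DMSO arrays, and on the one at -0.060 the groups overlapped. RPL32 stood at 0.00080 (interval -0.19 to 0.19) and RPL9 at 0.0083 (interval -0.18 to 0.20). RPL3, which shapes the peptidyl transferase centre, stood at 0.030, while its other bright probe sets ran from -0.072 to -0.020. RPL10, the subunit whose late joining completes the large particle, stood at 0.067 ± 0.10 with overlapping groups. RPL36 (-0.20) and RPL24 (-0.16), a protein of the bridge between subunits, were at the lower end without a call.

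The 2 called genes were both read by dim probe sets, here those with a mean log2 intensity under 10, which are 21141 of all 22215. RPL37A read 27.0, 33.2 and 27.4 with gedunin, against 39.6 and 41.7 on DMSO 1 and 2, without overlap, and fell by 0.49 ± 0.11 on the log2 scale (limma adjusted p = 0.0140). Leaving out DMSO 1 or DMSO 2 ended that call (limma adjusted p = 0.0740 and 0.116). A bright probe set that names RPL37A together with PLK1, outside the rule for members, read 13247, 13537 and 13586, against 13825 and 13861 (-0.041 ± 0.08, limma adjusted p = 0.815). A second dim probe set of RPL37A stood at 0.020 ± 0.09, so the fall was seen on 1 of its 3 probe sets. RPL10L, a retrogene copy of RPL10 expressed mainly in testis, read 90.9, 98.9 and 88.7 with gedunin, against 66.1 and 77.4 with DMSO, and rose by 0.37 ± 0.10 (limma adjusted p = 0.0337). Without gedunin 1, gedunin 2 or DMSO 1 that call was lost (limma adjusted p = 0.0675, 0.0951 and 0.269). Centring on GAPDH and ACTB or on the top 10% of probe sets ended it too (limma adjusted p = 0.169 and 0.0507).

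None of the other paralogs was called. RPS27L, a p53-responsive copy of RPS27, read 3312, 3352 and 3200 with gedunin, against 3016 and 2887 on DMSO 1 and 2, while RPS27 read 6484, 6636 and 6597, against 7588 and 7119. In both genes the groups were separate, in opposite directions (0.16 ± 0.09, limma adjusted p = 0.288, and -0.16 ± 0.09, limma adjusted p = 0.271). Centred on GAPDH and ACTB, which moved all genes down by a common amount, RPS27L stood at -0.014. The difference between the pair was 0.32, with an exact two-sided permutation p of 0.2. That is the smallest p this test can give with 3 against 2 arrays, so it cannot decide whether a paralog and its parent differed. The other 3 pairs with both genes measured gave 0.31 (RPL10L minus RPL10), 0.16 (RPL39L minus RPL39) and -0.010 (RPL3L minus RPL3), with exact permutation p of 0.2, 0.2 and 1, and adjusted over the 4 pairs the lowest was 0.267. RPL39L, a testis-enriched copy, read 13.9, 13.7 and 14.7 with gedunin, against 13.6 and 13.0, and RPL3L, the striated muscle copy, 21.1, 20.3 and 23.7, against 20.9 and 21.8. Both lay below the median gene, which read 42.7 to 43.9 on the gedunin arrays and 43.8 and 44.4 on DMSO 1 and 2. RPL26L1 stood at -0.16 and RPL36AL at -0.057.

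Several probe sets read 34 of the genes. Of all 128 member probe sets 1 was called higher and 3 lower, against 7.37% and 7.91% of all probe sets. Of the 98 member probe sets with a mean log2 intensity of at least 10, 0 were called (3 at an unadjusted p of 0.05), against 21.6% of all 1074 such probe sets. All 4 called ones were among the 30 dimmer ones, and of all dim probe sets 7.97% were called lower. The largest change was on a dim second probe set of RPL23, which read 50.2, 37.3 and 32.9 with gedunin, against 100.5 and 69.2 with DMSO, and fell by 1.08 ± 0.19 (limma adjusted p = 0.00375). Another dim probe set of RPL23 stood at -0.062 ± 0.11, so the 3 readings of this gene were -0.27, -1.08 and -0.062. A dim probe set of RPL41, the shortest ribosomal protein, read 100.6, 93.0 and 97.0, against 123.8 and 121.8, and fell by 0.34 ± 0.09 (limma adjusted p = 0.0244), while its bright probe set stood at -0.048 ± 0.09 and another dim one at 0.021 ± 0.09. Of the 24 dim second probe sets, 12 lay below and 12 at or above the value of the gene's brightest one.

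**Figure D4:**
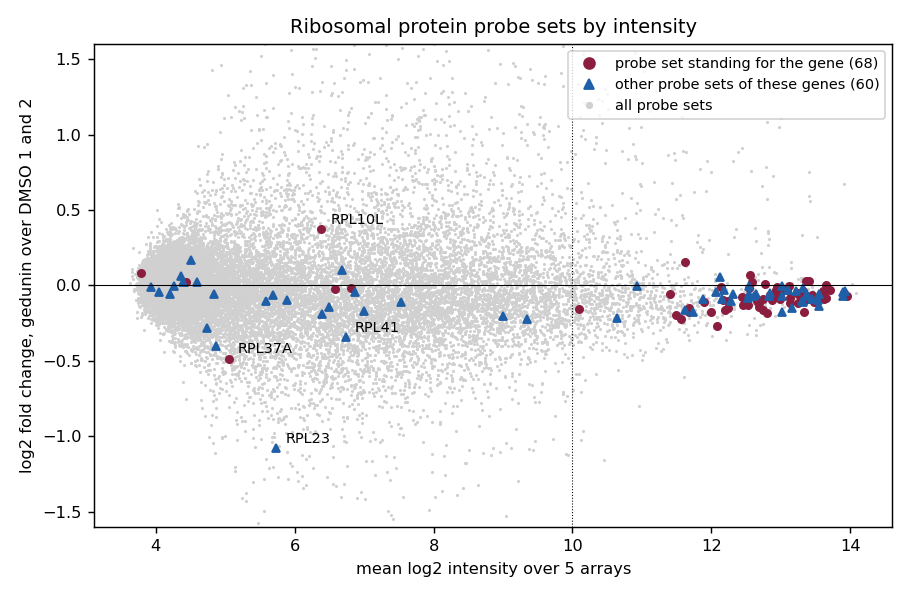
Log2 fold change against mean log2 intensity over 5 arrays for all probe sets (grey, values beyond 1.6 not drawn), the 68 probe sets standing for ribosomal protein genes (red circles) and their 60 other probe sets (blue triangles), with called ones named. The 98 member probe sets right of the dotted line at 10 lie in a thin band and none is named, and all 4 named ones lie left of it.

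Of the 128 probe sets, 60 carry the suffix _x_at and 39 the suffix _s_at, which mark probes that match several sequences or transcripts. Ribosomal protein genes have many processed pseudogenes, whose transcripts such probes may also read. With both kinds left out, 26 members remained, with a median of -0.081 and the same 2 genes called. The 29 probe sets that name a family gene together with other symbols gave 0 higher and 1 lower call (a dim one of RPL17), with a median of -0.12. Among them RPS3 stood at -0.033, RPL34 at -0.052, RPL21 at -0.12, RPS26 at -0.13 and RPL36A at -0.16, none called.

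The members were also split by their start sequence, with no test of the difference. The 38 members with a TOP start had a median of -0.080 (0 rose, 1 fell), the 18 with none in this window -0.057 (1 rose, 0 fell), and the 12 without a listed start -0.075 (0 called). Of 18 other measured mRNAs known to carry a TOP tract, 0 rose and 0 fell, against 8.22% and 9.35% of all genes. Their median was -0.050, and 1 passed an unadjusted p of 0.05, against 30.3% of all genes. The elongation factor EEF1A1 stood at -0.053 ± 0.09 and the poly(A)-binding protein PABPC1 at -0.14 ± 0.08. FAU, whose product carries a small subunit protein fused to a ubiquitin-like domain, stood at -0.15 ± 0.08 (limma adjusted p = 0.299).

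Calls were made among genes that act on or around the ribosome. Of 11 measured regulators of TOP translation and growth, 3 rose and 1 fell, where 8.22% of all genes rose and 9.35% fell. DDIT4, an inhibitor of mTORC1, read 3846, 3585 and 3439 with gedunin, against 478 and 520 with DMSO, and rose by 2.86 ± 0.09 (limma adjusted p = 5.15e-08). EIF4EBP1, the translation repressor 4E-BP1, rose by 0.50 ± 0.09 (limma adjusted p = 0.00452) and LARP4, a binder of poly(A), by 0.62 ± 0.13 (limma adjusted p = 0.00880), while LARP1 stood at 0.21 ± 0.09 without a call. MYC, a transcriptional activator of ribosomal protein genes, read 609, 746 and 681, against 1167 and 1301, and fell by 0.87 ± 0.11 (limma adjusted p = 4.97e-04). MDM2 read 333, 446 and 200, against 90.0 and 65.8, and rose by 2.01 ± 0.27 (limma adjusted p = 8.16e-04).

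Of 9 measured chaperones and importers of ribosomal proteins, 1 rose, the importin TNPO1 (0.65 ± 0.09, limma adjusted p = 8.26e-04), and 0 fell. Among all genes 8.22% rose and 9.35% fell. Among 5 partners of the nascent chain, 2 rose: DNAJC2 (0.49 ± 0.10) and HSPA14 (0.45 ± 0.10), which form the ribosome-associated chaperone pair with each other. All 5 measured ribosome quality control genes were called, 2 higher and 3 lower, against 17.6% of all genes called. PELO, which rescues stalled ribosomes, rose by 1.06 ± 0.11 (limma adjusted p = 1.92e-04), and LTN1, the ubiquitin ligase listerin that tags stalled chains, read 137, 113 and 128, against 301 and 281, and fell by 1.21 ± 0.10 (limma adjusted p = 4.13e-05). GIGYF2 rose (0.41), and HBS1L (-0.37) and NEMF (-0.32) fell. The probe set of NEMF was dim, at 30.5, 29.9 and 31.7 with gedunin, against 36.8 and 39.7 with DMSO. Mitochondrial ribosomal protein genes gave 1 higher and 12 lower of 50 (26.0% called, against 17.6% of all genes), with a median of -0.17. Translation initiation factors gave 4 higher and 3 lower of 45, with a median of -0.064, and their 15.6% called was near the share among all genes. The differences from the cytosolic set were not tested.

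**Figure D5:**
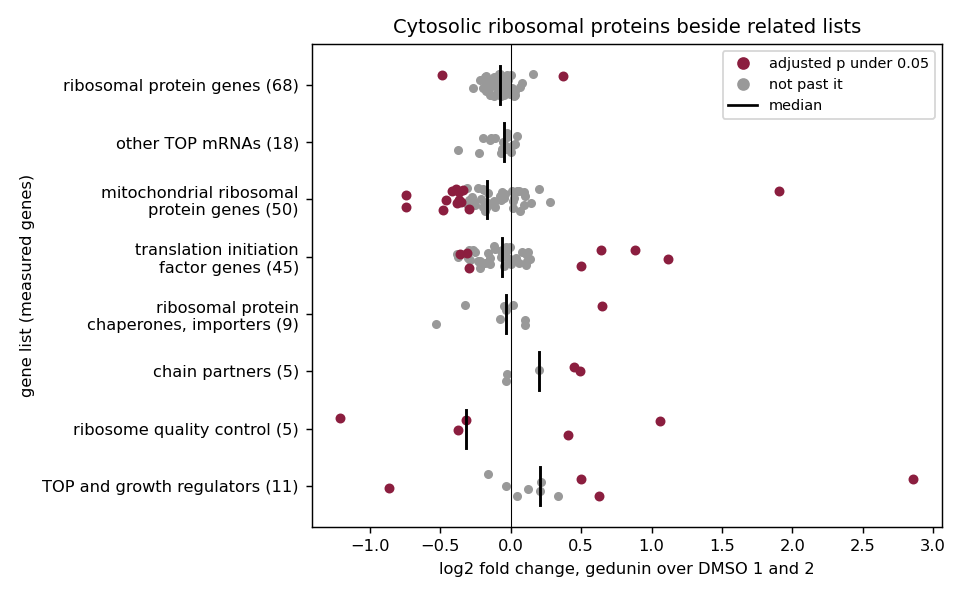
Log2 fold change of each measured gene in the 68 cytosolic ribosomal protein genes and 7 related lists, red where the adjusted p was under 0.05, with a black bar at the median. The cytosolic set is a narrow cluster with 2 red points, while mitochondrial ribosomal protein genes have 13 and the quality control genes are all red.

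On the array labelled DMSO 3, few ribosomal protein genes stood far from DMSO 1 and 2. At least 2-fold differences were seen for 2 of the 68, both higher, against 9.22% of all genes higher and 12.9% lower. The median member lay at -0.16, and 52 lay below 0. RPS19 (0.46), RPL22 (0.42), RPL5 (0.33) and RPL11 (0.30) were above DMSO 1 and 2, while RPL26L1 (-0.60), RPL36 (-0.53) and RPS27L (-0.49) were below. Another bright probe set of RPL22 stood at -0.72 on DMSO 3, and the remaining ones of that gene ran from 0.18 to 0.67. With that array taken as a DMSO array, 0 members were called by limma (1.68% of all genes), and the median was -0.030. Leukocyte markers summed to 125 to 126 on the gedunin arrays and to 136 and 124 on DMSO 1 and 2, and 0 of the 6 were called. Of the 7 luminal prostate markers 4 were called, in both directions: the keratins KRT18 (0.47 ± 0.09) and KRT8 (0.34 ± 0.10) rose, and the protease TMPRSS2 (-0.70 ± 0.10) and the transcription factor HOXB13 (-0.39 ± 0.10) fell. The 4 fibroblast markers summed to 158 to 166 on the gedunin arrays, against 118 and 122, through COL1A1, a collagen, which rose by 0.75 ± 0.10 (limma adjusted p = 6.09e-04), while the other 3 were not called. Their part in the members' values was not tested.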

How the data were processed

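The deposited table holds 1 intensity per probe set for 22215 probe sets on each of 6 arrays, made by the authors with RMA per the submitters' processing notes, with no version. Intensities were on a linear scale, so log2 was taken. Which arrays were normalized together is not given in the sources used here, and depth has no counterpart on arrays, where their number limits the precision.

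Probe sets were joined to the platform annotation, in which 19724 named 1 gene, 568 several and 1923 were not listed. Each gene was represented by whichever of its single-gene probe sets averaged highest across the 6 arrays. limma (version 3.58.1, R 4.3.3) compared gedunin 1 to 3 with DMSO 1 and 2 without a dim filter, and p-values were adjusted by Benjamini-Hochberg over all probe sets, with a threshold of 0.05. Errors are moderated standard errors. The code was tested on simulated data.

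Members, lists and the choice of arrays were made with earlier results of these data known. The rule for named genes took the 10 members with the lowest and the 10 with the highest fold changes, called members at least 1.5-fold changed, fixed lists of paralogs with their parents and of well-known members, the 5 brightest and 5 dimmest, and up to 4 called genes of each related list. RPL12, RPS7, EEF1A1, PABPC1, FAU, LARP1, NEMF and the called cell type markers were named after their values were seen.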

Additional observations from a re-analysis of the deposited data

Results flagged for a closer look

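On the array labelled DMSO 3, which entered no comparison, 2 members read at least 2-fold above the mean of DMSO 1 and 2. RPL39L read 87.5 there, 6.58 times that mean, and between 13.0 and 14.7 on the other 5 arrays. RPL27A, by its single-gene probe set, read 218 there, 2.25 times that mean, and between 90.5 and 105 on the others. A probe set naming RPL27A with a pseudogene read 6491 there, against 7306 and 7317 on DMSO 1 and 2.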

How the results depend on the processing

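The main comparison called 1 member lower and 1 higher, with a median log2 fold change of -0.078, and the median stayed below 0 under each alternative run. Lower calls numbered 2 with dim probe sets filtered out, 3 with a second quantile normalization, 3 with log2 of the value plus 16, 3 when each member probe set was counted (chosen after seeing the data), 10 with trend and robust eBayes, and 0 at a threshold of 0.01 or among the top 10% of intensity, where higher calls also numbered 0. Centring on the top 10% of probe sets gave 2 lower, 0 higher and a median of -0.13, centring on GAPDH and ACTB 16, 0 and -0.25, and all 6 arrays 0, 0 and -0.030. Centring on the array median gave a median of -0.058. Leaving out 1 array at a time gave 0 to 1 lower and 0 to 1 higher calls and medians of -0.090 to -0.068. Without a DMSO array, the lone one left is assumed to vary like the gedunin arrays. DMSO 1 and DMSO 2 each decided the call of RPL37A, and gedunin 1, gedunin 2 and DMSO 1 that of RPL10L. Same-numbered arrays did not deviate together: the correlations over probe sets were -0.033 and 0.039 for numbers 1 and 2. With a replicate block on the numbers, gedunin 3 stood alone in its block and did not enter the fold changes. Its median of -0.079 therefore repeats that of the fit without gedunin 3 and is no separate check. The block left 1 lower and 1 higher call and changed the count of all genes called to 1850. Among 604 values of the 33 named members under alternatives, 0 called values changed sign, and 53 uncalled ones did. Array weights, the mean of all probe sets and the choice of probe set over 5 arrays kept the counts at 1 and 1, though the mean of all probe sets called RPL23 lower in place of RPL37A. Both calls rest on dim probe sets, that of RPL37A below the median gene and that of RPL10L above it. The part of background signal in them was not tested.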
